A study of Mus musculus with 3 samples.

Results

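The 4 Ly6 genes Ly6a, Ly6c1, Ly6c2 and Ly6e were followed in single cells of libraries labelled as P14 cells. P14 cells are mouse CD8 T cells whose transgenic receptor recognises GP33, a peptide from lymphocytic choriomeningitis virus (LCMV). The genes were taken by name from the 31053 genes of the count matrices, and all 4 were found. The cells came from 3 libraries, 1 per group, made with a 10x Genomics 3′ kit. TdLN is the lymph node draining a B16.Gp tumour, a mouse melanoma line that expresses the viral glycoprotein. It was taken from C57BL/6 mice on day 16, and naive P14 cells had been given on day 8. PBMC is blood of such mice on the same day. Memory, the study's control, is P14 cells of day 200 of an acute LCMV infection. The donor P14 mice carried a TCF-1-GFP reporter, and all 3 libraries are labelled WT. TdLN and PBMC cells had been sorted for CD45.1, CD44 and CD8, and memory cells for CD45.1, CD44, CD8, CD127 and other markers, without KLRG1. The labels used here give neither the number of mice per library nor the tissue of the memory cells, and a tumour-infiltrating library named in the design was not analysed here.

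Ly6 proteins are small, cysteine-rich proteins that a glycosylphosphatidylinositol (GPI) anchor holds on the outside of the cell. Ly6a encodes Sca-1, a surface marker of mouse blood stem cells that interferons induce in lymphocytes. Ly6c1 and Ly6c2 are near-identical neighbours that both encode forms of Ly-6C, an antigen used to mark inflammatory monocytes and antigen-experienced CD8 T cells. Ly6e is broadly expressed and interferon-inducible, and its product restricts entry of coronaviruses. Ccr7 encodes the chemokine receptor that brings T cells into lymph nodes, and is lost by effector cells.

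On GRCm38 (mm10), all 4 genes lie on chromosome 15 and are annotated as protein coding, each with 4 exons in its longest coding transcript. Ly6e (ENSMUSG00000022587) spans chr15:74955051-74959905 on the plus strand. Ly6a (ENSMUSG00000075602) spans chr15:74994877-74998031, Ly6c1 (ENSMUSG00000079018) chr15:75044018-75048830 and Ly6c2 (ENSMUSG00000022584) chr15:75108158-75111970, all on the minus strand. The 3′ kit reads the end of a transcript, and there Ly6c1 and Ly6c2 are close to identical. Over the last 500 bases of their longest coding transcripts, 98.2% of 493 aligned bases were identical, and 35 of the 411 stretches of 90 bases (8.52%) occurred unchanged in the other gene. Ly6a shared none of its 411 stretches with either, at 87.9% identity to Ly6c1 and 87.2% to Ly6c2.

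Upstream sequence of the pair is printed because the 2 genes differed most in their counts. RefSeq (GRCm38.p6) gave windows of 300 bases, from 250 before to 50 after a start site, for 2 of the 4 genes, Ly6c1 and Ly6c2. 1 of the 2 windows of each gene is shown, on the minus strand, chr15:75048788-75049087 for Ly6c1 and chr15:75111922-75112221 for Ly6c2. Capitals mark matches to the ETS core GGAAGT or the RUNX core TGTGGT, on either strand.
Ly6c1: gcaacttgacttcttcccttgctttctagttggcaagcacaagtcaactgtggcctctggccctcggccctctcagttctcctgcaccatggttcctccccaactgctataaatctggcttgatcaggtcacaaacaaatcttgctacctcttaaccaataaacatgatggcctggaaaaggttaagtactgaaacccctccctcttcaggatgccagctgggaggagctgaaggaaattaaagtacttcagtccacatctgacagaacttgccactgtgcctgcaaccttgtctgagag
Ly6c2: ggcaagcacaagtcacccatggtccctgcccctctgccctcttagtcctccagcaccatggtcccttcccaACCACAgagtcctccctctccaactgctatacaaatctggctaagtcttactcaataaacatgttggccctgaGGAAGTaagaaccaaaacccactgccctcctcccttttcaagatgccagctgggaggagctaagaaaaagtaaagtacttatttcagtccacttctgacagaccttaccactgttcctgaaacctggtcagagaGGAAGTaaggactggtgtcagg
Of the 266 bases that aligned between these windows, 78.2% were identical, and over the 4 pairs of a Ly6c1 and a Ly6c2 window the share was 77.6% to 89.3%. The Ly6c2 window held 2 ETS cores and 1 RUNX core (as its reverse complement ACCACA), and the Ly6c1 window held none of them. The other Ly6c1 window held 1 ETS core and no RUNX core. That core begins on the last base of the Ly6c1 window shown, which is cut inside it. The bases after it, aaggactggtgt, also follow the second ETS core of the Ly6c2 window. The counts of cores thus depend on where the windows end. These letters are common: 23.8% of 32851 promoter windows of this length held the ETS core and 16.8% the RUNX core. The core of the interferon-stimulated response element, GAAA repeated after any 2 bases (3.44% of windows), and the gamma-activated site TTCNNNGAA (8.30%) were also searched on both strands, overlap with the other motifs allowed, and had no match in any of the 4 windows. A match is a description of letters, not of a bound site.

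Cells that showed 500 genes or more, with mitochondrial genes holding no more than 10% of their counts, were used: 6265 TdLN, 5652 PBMC and 7003 memory cells, with 69537836, 48987260 and 70116366 UMI counts. Median depth was 9674 UMIs per TdLN cell, 7085 per PBMC cell and 9956 per memory cell. The T cell genes Cd3e, Cd8a and Cd8b1 were seen in 88.2% to 99.4% of cells in every library. Of the B cell list, all 7 genes had counts in TdLN and memory and 5 in PBMC, summing to 292 CPM in TdLN, 101 CPM in PBMC and 119 CPM in memory. The 11 macrophage, monocyte, neutrophil or dendritic genes summed to 300 CPM, 107 CPM and 95.4 CPM in the same order of libraries (4 of them had no count in PBMC). The 8 erythroid or platelet genes summed to 5.11, 33.5 and 1.80 CPM. Ighm alone held 216, 88.8 and 112 CPM of the B cell sums, and Cst3 85.4, 90.1 and 87.0 CPM of the myeloid sums. Other genes were further apart, such as Lyz2 (136, 3.76 and 0.285 CPM) and Cd79a (18.4, 0.184 and 0.300), while Itgam was highest in PBMC (0.503, 1.41 and 0.143). Between 11 and 17 barcodes were shared by each pair of libraries. Values below are CPM, the counts of a gene in the summed cells of a library scaled to a common total, with 95% intervals, which cover counting error only. With 1 library per group no p-value is given, and tissue, day, sort and preparation cannot be told apart.

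Ly6a was lowest in PBMC and highest in memory. It had 316 CPM in TdLN (95% interval 312 to 320), 256 CPM in PBMC (252 to 261) and 364 CPM in memory (360 to 368). The intervals did not overlap, but the steps were small: TdLN was 1.15-fold lower than memory (1.13 to 1.17), PBMC 1.42-fold lower than memory (1.39 to 1.45), and TdLN 1.23-fold higher than PBMC (1.21 to 1.26). A Ly6a UMI was seen in 79.2% of TdLN cells, 68.4% of PBMC cells and 91.4% of memory cells. With every cell thinned to 4200 UMIs, which removes the difference in depth and left 6067 TdLN, 5148 PBMC and 6727 memory cells, the shares were 59.6%, 53.4% and 73.7%.

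Ly6c2 had the most UMIs of the 4 in every library. Each mRNA is counted once at its 3′ end whatever its length, but differences between genes in capture or read assignment were not tested. Ly6c2 had 951 CPM in TdLN (944 to 958), 1444 CPM in PBMC (1434 to 1455) and 1460 CPM in memory (1451 to 1469). TdLN stood below both others, 1.54-fold lower than memory (1.52 to 1.55) and 1.52-fold lower than PBMC (1.5 to 1.53). PBMC and memory were 1.01-fold apart, and that order turned with the weighting: with cells thinned, PBMC had 1587 CPM and memory 1469 CPM. Shares of cells with a UMI were 86.0% in TdLN, 95.9% in PBMC and 98.6% in memory, and 80.8%, 93.2% and 98.2% after thinning. Of TdLN cells with no T cell gene, 38 with B cell genes and 70 with myeloid genes had a Ly6c2 UMI in 10.5% and 15.7%, at median depths of 4650 and 2130 UMIs. Those shares are far below the T cell libraries' own.

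Ly6e was near its memory level in TdLN and lowest in PBMC. It had 640 CPM in TdLN (634 to 646), 446 CPM in PBMC (440 to 452) and 683 CPM in memory (677 to 690). TdLN was 1.07-fold lower than memory (1.05 to 1.08), PBMC 1.53-fold lower than memory (1.51 to 1.56), and TdLN 1.43-fold higher than PBMC (1.41 to 1.46). A Ly6e UMI was seen in 97.6% of TdLN cells, 77.1% of PBMC cells and 98.6% of memory cells, and in 89.9%, 70.9% and 92.6% after thinning.

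Ly6c1 was close to undetected. It had 73 UMIs in TdLN (1.05 CPM, 0.823 to 1.32), 80 in PBMC (1.63 CPM, 1.29 to 2.03) and 63 in memory (0.899 CPM, 0.690 to 1.15). Of all UMIs given to Ly6c1 or Ly6c2, Ly6c1 held 0.110% in TdLN, 0.113% in PBMC and 0.0615% in memory. Given the similar 3′ ends, whether these few UMIs came from Ly6c1 or from Ly6c2 was not tested, and no ratio of Ly6c1 is read here.

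None of the 3 genes above 20 CPM (Ly6a, Ly6c2 and Ly6e) was 2-fold apart between any libraries. Among all genes that reached 20 CPM in the higher of 2 libraries, 4.22% were at least 2-fold higher and 1.89% lower in TdLN over memory. The shares were 1.69% higher and 0.684% lower in PBMC over memory, and 3.0% higher and 1.87% lower in TdLN over PBMC. The 3 Ly6 genes above 20 CPM had a median log2 ratio of -0.20 in TdLN over memory, against 0.17 over 4647 genes. In PBMC over memory their median was -0.51, against 0.05 over 4384 genes, and in TdLN over PBMC 0.30, against 0.12 over 4606 genes. The comparisons share libraries and are not independent of each other. Because counts are summed over cells, fewer cells with a gene and less RNA per cell cannot be told apart in these levels, which the counts per cell address next.

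**Figure D1:**
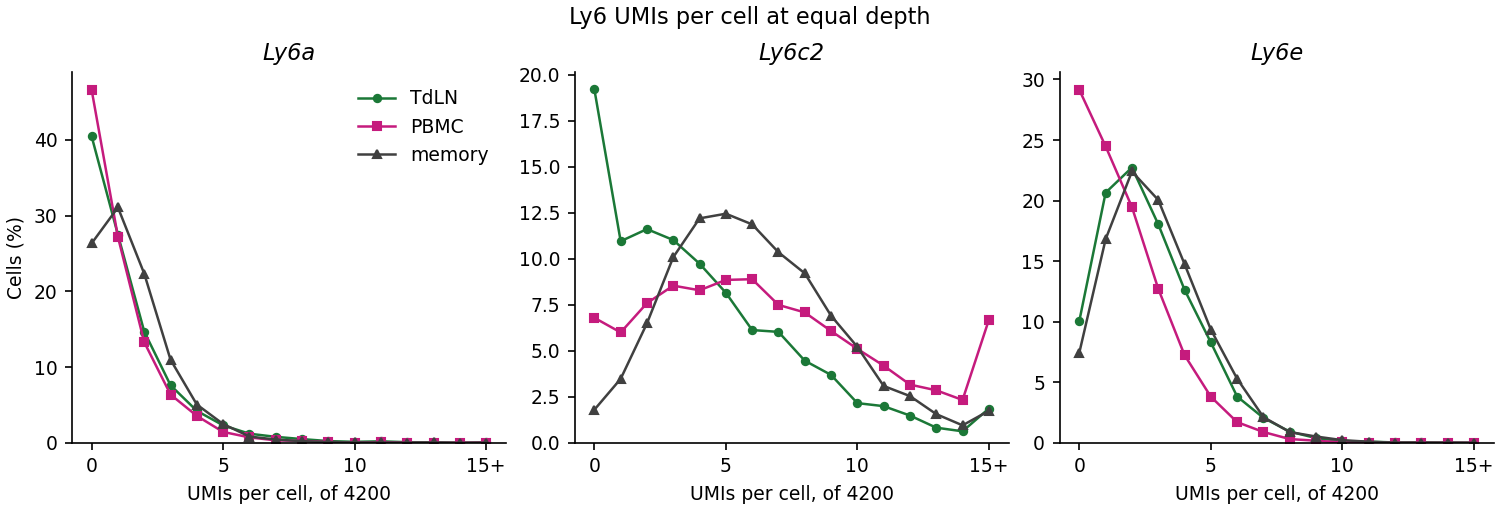
UMIs per cell of Ly6a, Ly6c2 and Ly6e after each cell was thinned to 4200 UMIs (x axis; 15+ is 15 or more) against the share of cells in percent (y axis), for the TdLN, PBMC and memory libraries. For Ly6c2, 19.2% of TdLN cells sit at 0 UMIs, against 6.80% of PBMC and 1.80% of memory cells, and PBMC has a raised share at 15 or more.

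Ly6c2 was uneven among TdLN cells. After thinning, 19.2% of TdLN cells, 6.80% of PBMC cells and 1.80% of memory cells had no Ly6c2 UMI, where a Poisson spread around the library mean gives 1.67%, 0.128% and 0.209%. The variance of Ly6c2 UMIs over their mean was 3.67 in TdLN, 3.44 in PBMC and 1.80 in memory, where Poisson counts give a ratio near unity. The median cell had 3 UMIs in TdLN and 6 in both PBMC and memory, and the 10% of cells with the most had at least 9 in TdLN, 13 in PBMC and 10 in memory. PBMC thus combined more empty cells than memory with more high cells. Ly6a varied less, with a variance over mean of 2.39 in TdLN, 1.99 in PBMC and 1.47 in memory, and Ly6e least, with 1.36, 1.65 and 1.21. At equal depth, UMIs of Ly6a, Ly6c2 and Ly6e were found together in 45.8% of TdLN cells, 38.4% of PBMC cells and 67.3% of memory cells.

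The TdLN cells without Ly6c2 had less Ccl5, a chemokine gene of antigen-experienced CD8 T cells, than the other TdLN cells. The 1166 thinned TdLN cells at 0 Ly6c2 UMIs had 185 CPM of Ccl5 and the 4901 others 1017 CPM, a 5.49-fold lower level. S100a6, a calcium-binding protein gene, had 53.3 CPM in cells at 0 and 119 CPM in the others (2.24-fold lower), and Il2rb, an IL-2 and IL-15 receptor chain, 90.1 CPM and 155 CPM (1.73-fold lower). Ly6a had 234 CPM in cells at 0 and 338 CPM in the others. Rgcc, a cell cycle regulator, was 1.86-fold higher in cells at 0, with 98.2 CPM against 52.7 CPM. Tcf7, a transcription factor of naive and memory T cells, differed little, with 280 CPM in cells at 0 and 269 CPM in the others, as did Ccr7 (199 and 188 CPM) and Ly6e (620 and 633 CPM). These genes were picked after their values had been seen, so they only describe the split. Ccl5, Il2rb, S100a6 and Rgcc were among the genes of highest or lowest rho with Ly6c2 in TdLN. Cells with Ly6c2 had far more Ccl5 in PBMC (22066 CPM) and memory (12719 CPM) than in TdLN. In PBMC, cells at 0 had more S100a6 (1588 and 1332 CPM) and Il2rb (181 and 153 CPM) than the others, and in memory less of both. Leaving out the TdLN cells that carried B or myeloid genes without T cell genes left 18.9% of TdLN cells at 0.

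Interferon-stimulated genes were next set against the 4 genes within each library. A list of 40 such genes, with no Ly6 gene among them, was summed per thinned cell, and the cells of a library were ranked by that sum into 5 equal groups. The highest group is called interferon-high and the lowest interferon-low. Ly6a was much higher in the interferon-high cells of both libraries from tumour-bearing mice. In TdLN, Ly6a had 595 CPM in interferon-high cells (574 to 616) and 196 CPM in interferon-low cells (184 to 209), a 3.03-fold difference (2.82 to 3.26). In PBMC it had 442 CPM in interferon-high cells (422 to 462) and 155 CPM in interferon-low cells (144 to 167), 2.85-fold (2.61 to 3.12). In memory the same split gave 466 CPM and 321 CPM, 1.45-fold (1.37 to 1.54), over a narrower range of the sum: interferon-high cells had a median of 27 list UMIs in TdLN, 19 in PBMC and 10 in memory.

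Ly6e also went with the sum. In TdLN it had 811 CPM in interferon-high cells and 521 CPM in interferon-low cells (1.56-fold, 1.48 to 1.64), and in PBMC 534 CPM and 322 CPM (1.66-fold, 1.55 to 1.77). Memory cells differed less, with 737 CPM and 646 CPM (1.14-fold, 1.09 to 1.19). Ly6c2 passed the 1.5-fold mark in TdLN, with 1299 CPM in interferon-high cells and 842 CPM in interferon-low cells (1.54-fold, 1.48 to 1.60). In PBMC it had 1789 CPM and 1519 CPM, and in memory 1623 CPM and 1375 CPM, both 1.18-fold. In all, 5 of 12 pairs of a gene and a library were at least 1.5-fold higher, with the 3 pairs of Ly6c1 too sparse to be counted either way. Of all genes at 20 CPM or more, list genes left out, 4.99% were so in TdLN, 1.80% in PBMC and 0.765% in memory. No pair of Ly6a, Ly6c2 or Ly6e was at least 1.5-fold lower, where all genes gave 0.760% in TdLN, 1.62% in PBMC and 0.116% in memory.

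**Figure D2:**
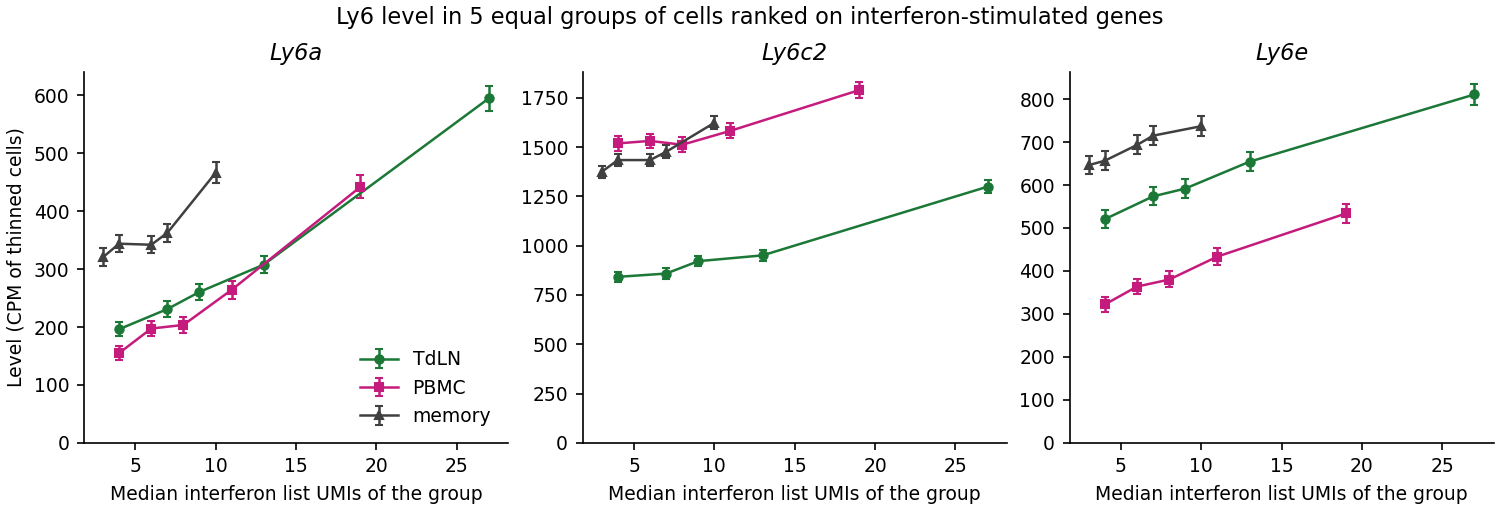
Level of Ly6a, Ly6c2 and Ly6e (y axis, CPM of thinned cells) in 5 equal groups of cells ranked by summed UMIs of 40 interferon-stimulated genes, placed at the median list UMIs of each group (x axis); bars are 95% counting intervals. Ly6a reaches 595 CPM in the top TdLN group and 442 CPM in the top PBMC group, and at similar list UMIs memory cells lie above both for Ly6a. For Ly6c2, PBMC lies above memory at a median of 4 list UMIs (1519 and 1434 CPM).

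Ly6c2 and Ly6a went with the sum in different ways in TdLN. The share of TdLN cells with a Ly6c2 UMI lay between 79.97% and 82.87% in all 5 groups, and was 80.4% in interferon-high and 79.97% in interferon-low cells. For Ly6a the share differed too, with a UMI in 77.2% of interferon-high and 49.6% of interferon-low cells. The same split in cells with no Ccr7 UMI gave Ly6a ratios of 3.12 in TdLN, 3.02 in PBMC and 1.40 in memory.

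The list sum leaned on 1 gene, Ifi27l2a, a gene strongly induced by type I interferon. It made up 29.5% of list UMIs in TdLN and 30.2% in PBMC, against 7.77% in memory. A subset of 9 strongly inducible genes without it (Isg15, Ifit1, Ifit3, Isg20, Rsad2, Usp18, Oasl2, Mx1 and Rtp4) was therefore used as an alternative, with cells of 3 or more subset UMIs set against cells of 0. Ly6a then had 622 CPM in the 933 high cells and 234 CPM in the 3010 low cells of TdLN (2.66-fold). In PBMC it had 637 CPM in 326 high cells and 205 CPM in 3293 low cells (3.11-fold), and in memory 763 CPM in 192 high cells and 348 CPM in 4325 low cells (2.19-fold). The memory library thus held a small set of cells in which Ly6a was past 1.5-fold, where the 5 groups gave 1.45-fold. Ly6e in TdLN dropped to 1.34-fold with the subset, so the count of pairs stayed at 5 with 1 pair exchanged. Ly6e in TdLN was also below 1.5-fold with cells thinned to 2500 UMIs (1.43-fold) and without non-T marker cells (1.44-fold). Each of these used a new random draw of the thinning.

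Rank correlation over thinned cells gave the same order of genes. Spearman's rho of Ly6a with the list sum was 0.27 over 6067 TdLN cells, 0.27 over 5148 PBMC cells and 0.12 over 6727 memory cells. Cells of 1 library share its preparation, and the sums are sparse counts, so these values only describe. Among genes outside the list with a UMI in at least 5% of cells, Ly6a had the highest rho of 5753 in TdLN and of 5586 in PBMC, and stood at place 2 of 5566 in memory. Ly6e had 0.21 in TdLN (place 11), 0.18 in PBMC (place 3) and 0.07 in memory (place 15). Ly6c2 had 0.11 in TdLN (place 76), 0.05 in PBMC (place 121) and 0.09 in memory (place 6). Places were lower by the ratio of interferon-high over interferon-low cells, among genes outside the list at 20 CPM or more. Of 4607 genes in TdLN, 4452 in PBMC and 4311 in memory, Ly6a stood at places 31, 7 and 61. Ly6e stood at places 187, 54 and 1257, and Ly6c2 at places 196, 513 and 879.

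Against the memory library the order ran the other way. The interferon-stimulated list was higher in both libraries from tumour-bearing mice than in memory, while Ly6a was lower in both. In TdLN over memory, 9 of the 27 list genes at 20 CPM or more were at least 2-fold higher and none 2-fold lower, with a median log2 ratio of 0.68. In PBMC over memory 3 of 25 were higher and none lower, with a median of 0.48. In TdLN over PBMC 1 of 27 was higher and none lower, with a median of 0.29, and there Ly6a was higher too (1.23-fold). Ifi27l2a had 947 CPM in TdLN, 836 CPM in PBMC and 115 CPM in memory. Bst2, the membrane tether tetherin, had 167, 148 and 110 CPM in the same libraries. Ifi203, a member of the AIM2-like receptor family, differed least of these 3, with 280 CPM in TdLN, 298 CPM in PBMC and 257 CPM in memory.

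Cells were therefore compared across libraries within 9 strata, 3 classes of Ccr7 UMIs (0, 1, and 2 or more) crossed with 3 classes of the list sum, cut at 6 and 9 UMIs, with equal weight for each stratum. Ly6a was lower in TdLN than in memory in all 9 strata, by 1.09-fold to 1.80-fold, at 284 CPM against 422 CPM (1.49-fold lower, where unmatched thinned cells were 1.15-fold lower). PBMC was lower than memory in all 9 as well, at 241 CPM against 422 CPM (1.75-fold lower). The top class reached up to 109 list UMIs in TdLN and 120 in PBMC, so within it cells of these libraries were not matched to memory cells on the exact sum. Ly6c2 was lower in TdLN than in memory in all 9 strata, at 924 CPM against 1514 CPM (1.64-fold lower). In PBMC it was higher than memory in 3 strata and lower in 6, at 1331 CPM against 1514 CPM. Ly6e was lower in all 9 strata in both comparisons, at 599 CPM in TdLN and 459 CPM in PBMC, against 695 CPM in memory.

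Where they reached 20 CPM, most genes linked to interferon gamma and most of interferon signalling were close to level. Of 18 gamma-linked genes, 13 had 20 CPM or more, and 1 was 2-fold higher in TdLN over memory and none in PBMC over memory, with medians of 0.20 and 0.10 (log2). The most abundant, the immunoproteasome subunit Psmb8, had 620 CPM in TdLN, 678 CPM in PBMC and 658 CPM in memory. Of 16 receptor, signalling and related genes, 1 of 12 was 2-fold lower in TdLN over memory and none of 13 was 2-fold apart in PBMC over memory. The gene that was lower was Tbx21, the transcription factor T-bet, named after its value was seen, with 10.5 CPM in TdLN, 31.4 CPM in PBMC and 45.9 CPM in memory. Jak1, a kinase of interferon receptors, had 326 CPM in TdLN, 433 CPM in PBMC and 323 CPM in memory. Ifngr1, the ligand-binding chain of the interferon gamma receptor, had 136, 262 and 218 CPM in the same libraries. Genes below 20 CPM, named after their values were seen, were further apart between TdLN and memory. Cxcl10 had 13.7 and 0.599 CPM, Iigp1 19.0 and 4.81, Gbp6 7.74 and 2.58. Irgm2 (5.74 and 8.67 CPM) and Gbp3 (12.2 and 17.4) went the other way. Ifngr2 had 7.43 and 0.128 CPM and Irf8 14.9 and 3.65. Tyk2 (18.8 and 17.0 CPM) and Stat2 (8.83 and 7.59) differed little.

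Ccr7 itself had 183 CPM in TdLN, 199 CPM in PBMC and 69.7 CPM in memory. With cells thinned it had 190, 154 and 67.3 CPM, so the order of TdLN and PBMC turned with the weighting. Within PBMC, Ccr7-positive cells had less Ly6c2 and more Ly6e. The 932 PBMC cells with 2 or more Ccr7 UMIs of 4200 had 1106 CPM of Ly6c2, and the 3464 with none had 1815 CPM, 1.64-fold lower (1.59 to 1.69). Ly6e had 520 CPM in positive and 349 CPM in negative PBMC cells, 1.49-fold higher (1.42 to 1.57). Ly6a had 238 CPM and 252 CPM, a difference within counting error. Of the 12 pairs of a gene and a library, 1 was at least 1.5-fold lower and none 1.5-fold higher, with the 3 pairs of Ly6c1 again too sparse to be counted. In PBMC 30.7% of all genes were that much lower and 4.32% higher, so the count of 1 is no mark of these genes. In TdLN 0.599% were lower and 0.0444% higher, and in memory 2.0% lower and 0.865% higher.

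**Figure D3:**
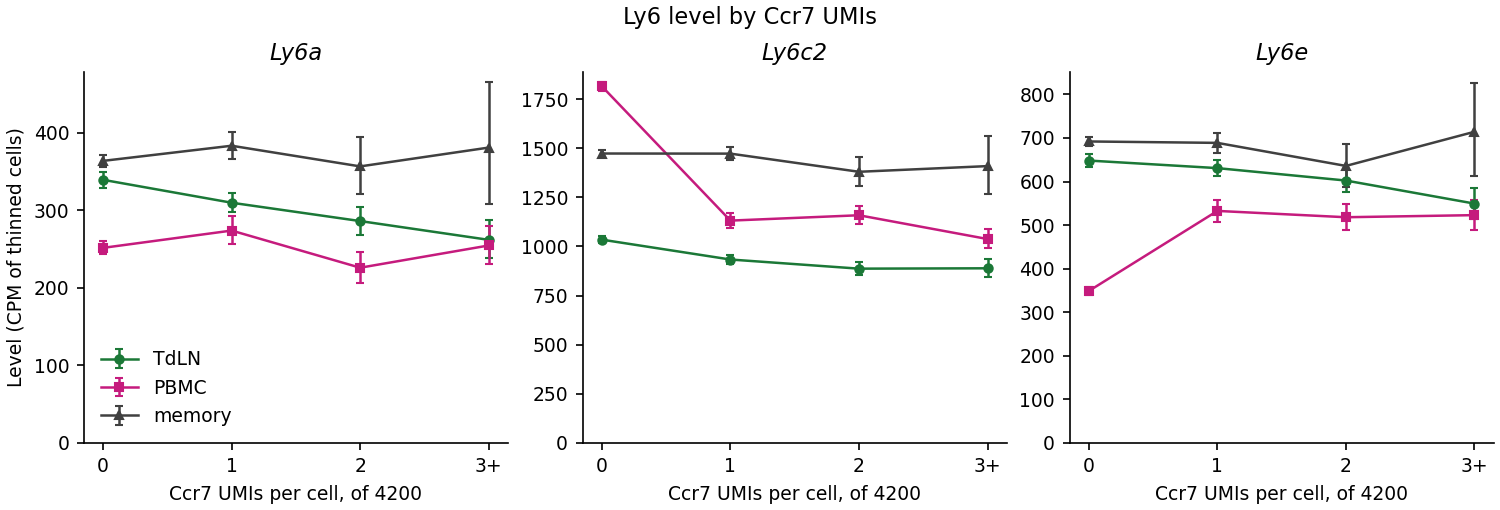
Level of Ly6a, Ly6c2 and Ly6e (y axis, CPM of thinned cells) in cells with 0, 1, 2 or 3 and more Ccr7 UMIs of 4200 (x axis) in the TdLN, PBMC and memory libraries; bars are 95% counting intervals. In PBMC the cells with no Ccr7 UMI stand apart, at 1815 CPM of Ly6c2 and 349 CPM of Ly6e.

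In the other libraries Ly6a, Ly6c2 and Ly6e varied little with Ccr7. In TdLN, 1218 positive and 3026 negative cells had 278 and 339 CPM of Ly6a (1.22-fold lower, 1.15 to 1.30), 887 and 1034 CPM of Ly6c2 (1.17-fold lower, 1.13 to 1.21) and 584 and 648 CPM of Ly6e (1.11-fold lower, 1.06 to 1.16). In memory, 309 positive and 5213 negative cells were at most 1.06-fold apart for these 3 genes. Spearman's rho with Ccr7 in PBMC was -0.29 for Ly6c2 and 0.24 for Ly6e. It was 0.02 for Ly6a in PBMC and between -0.05 and 0.01 for all 3 genes in TdLN and memory.

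The PBMC pattern moved with effector cells. An effector gate took cells with at least 2 of the 6 genes Gzma, Gzmb, Klrg1, Cx3cr1, Zeb2 and S1pr5 detected. It took in 67 TdLN, 2818 PBMC and 473 memory cells. Of the gated PBMC cells, 165 showed Trbv13-3, the beta segment of P14 cells, alone, and 341 showed other beta segments alone. The PBMC gate can therefore not be read as P14 cells alone. In PBMC, gated cells had 1953 CPM of Ly6c2 and the rest 1171 CPM (1.67-fold higher, 1.64 to 1.69). They had 282 CPM of Ly6e and the rest 534 CPM (1.89-fold lower, 1.83 to 1.95), and 240 and 264 CPM of Ly6a. These levels are sums over unthinned cells. The median depth of gated cells was 5278 UMIs, against 11698 UMIs in the rest. At equal depth gated cells had 2019 CPM of Ly6c2 and 259 CPM of Ly6e, and the rest 1199 and 539 CPM. At equal depth a Ly6e UMI was seen in 53.8% of gated and 86.2% of other PBMC cells. Without the gated cells, the Ccr7-positive PBMC cells had 523 CPM of Ly6e and the negative 547 CPM, a ratio of 0.954, and 1087 and 1364 CPM of Ly6c2, 1.26-fold lower. The Ly6e difference was thus not seen outside the gate, and the one in Ly6c2 was smaller there. Inside the gate it was seen: the 127 PBMC cells with at least 1 Ccr7 UMI had 433 CPM of Ly6e (379 to 493). The 2308 gated cells with none had 249 CPM (239 to 259). Ly6c2 had 1627 and 2041 CPM in these cells.

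**Figure D4:**
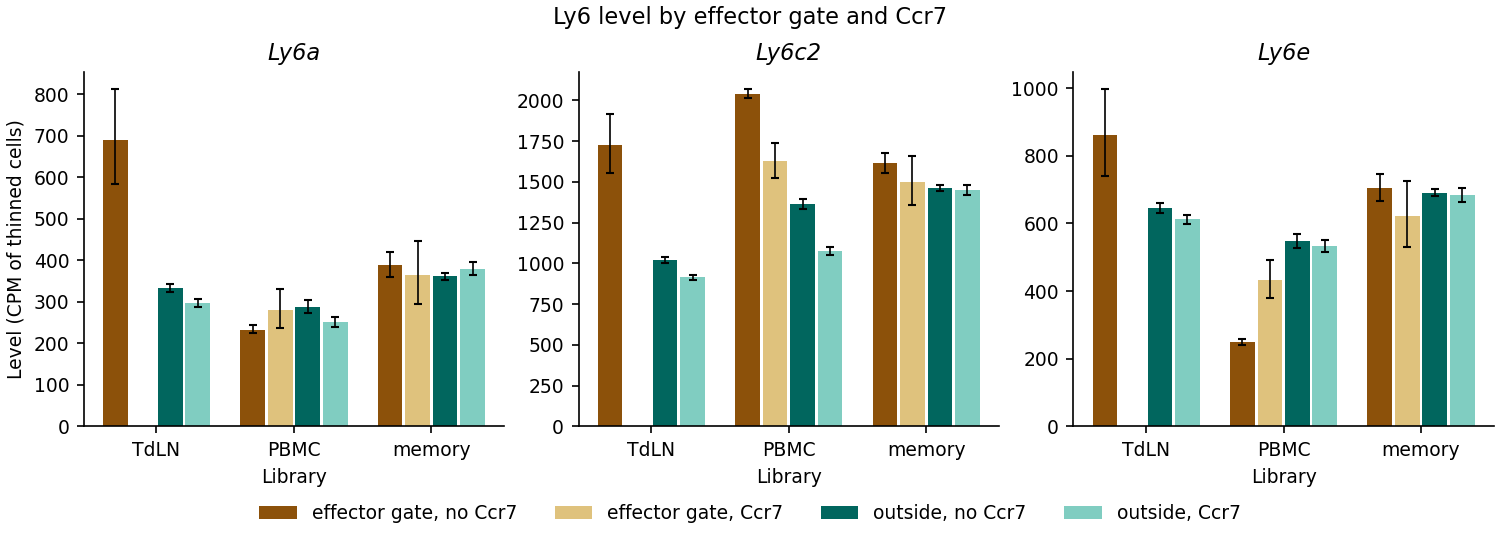
Level of Ly6a, Ly6c2 and Ly6e (y axis, CPM of thinned cells) by library (x axis) in cells inside or outside the effector gate, with at least 1 Ccr7 UMI ("Ccr7") or none; bars are levels with 95% counting intervals, and the TdLN gate with Ccr7 held too few cells to draw. PBMC cells in the gate without Ccr7 have 249 CPM of Ly6e and 2041 CPM of Ly6c2, against 547 CPM and 1364 CPM outside the gate without Ccr7. The PBMC gate includes cells that showed only beta segments other than that of P14 cells.

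Gated cells of the other libraries did not have low Ly6e. In TdLN the 67 gated cells had 723 CPM of Ly6e and the rest 639 CPM, with 537 and 313 CPM of Ly6a and 1239 and 947 CPM of Ly6c2. These are sums over unthinned cells. At equal depth, 59 gated and 6008 other TdLN cells had 815 and 628 CPM of Ly6e. They had 682 and 315 CPM of Ly6a and 1663 and 968 CPM of Ly6c2. In memory the gated cells had 691 CPM of Ly6e and the rest 683 CPM, with 1570 and 1452 CPM of Ly6c2. The memory sort had left out KLRG1-positive cells, so the gate there holds other cells than in PBMC.

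Of the effector, precursor-type and cycling gates in TdLN, the precursor-type one had the lowest Ly6c2. It took cells with at least 2 of Izumo1r, Ikzf2, Ctla4 and Myb, which are genes linked to restrained or precursor-type T cells, and held 822 TdLN, 145 PBMC and 1 memory cells. In TdLN, gated cells had 661 CPM of Ly6c2 and the rest 1026 CPM (1.55-fold lower, 1.52 to 1.59), 274 and 327 CPM of Ly6a, and 713 and 621 CPM of Ly6e. In PBMC the gated cells had 977 CPM of Ly6c2 and the rest 1461 CPM (1.5-fold lower, 1.42 to 1.57), and 597 and 441 CPM of Ly6e. Median depth in TdLN was 12569.5 UMIs in gated and 9495 in other cells, and these levels are from unthinned cells. At equal depth, gated TdLN cells had 722 CPM of Ly6c2 and the others 1014 CPM, a smaller gap. There 32.8% of gated and 17.1% of other TdLN cells had no Ly6c2 UMI. The 586 cycling TdLN cells were those with at least 2 UMIs over Mki67, Top2a, Birc5, Ube2c, Pclaf and Ccnb2. Unthinned, they had 709 CPM of Ly6c2 and the rest 1007 CPM (1.42-fold lower, 1.39 to 1.45), with 764 and 611 CPM of Ly6e. Their median depth was 19328.5 UMIs, against 9474 in the rest. At equal depth the cycling cells had 821 CPM of Ly6c2, closer to the 974 CPM of all thinned TdLN cells.

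Receptor segments were read where a cell showed only 1 kind. P14 cells use the beta segment Trbv13-3, and 957 PBMC cells showed it alone, while 495 showed other segments alone. Cells with Trbv13-3 alone had 1203 CPM of Ly6c2 and those with other segments 1650 CPM, with 528 and 383 CPM of Ly6e. Within the effector gate 165 and 341 such cells had 1668 and 1883 CPM of Ly6c2 and 394 and 281 CPM of Ly6e. Outside the gate 792 and 154 cells had 1134 and 1344 CPM of Ly6c2 and 548 and 518 CPM of Ly6e. In TdLN the split was 1418 against 157 cells, with 971 and 965 CPM of Ly6c2 and 632 and 601 CPM of Ly6e. In memory it was 3017 against 114 cells, with 1464 and 1435 CPM of Ly6c2 and 692 and 673 CPM of Ly6e. The part of these other cells in the PBMC values was not tested beyond these splits.

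The genes most alike in pattern were found by the mean Spearman rho over the 3 libraries, among 4939 genes. For Ly6a they were Isg15 (0.15), Ly6c2 (0.14), Ly6e (0.14), Ifi27l2a (0.14) and Ifit3 (0.13), 3 of them on the interferon list. For Ly6c2 they were S100a6 (0.22), Nkg7 (0.22), a cytotoxic granule gene, Ccl5 (0.21), Tmsb4x (0.20), which encodes the actin-binding thymosin beta-4, and Klrk1 (0.20), which encodes the receptor NKG2D. For Ly6e they were Ly6a (0.14), Ltb (0.13), which encodes lymphotoxin beta, Ifi27l2a (0.12) and Plac8 (0.11). The means hide differences between libraries. Ccl5 with Ly6c2 had rho 0.27 in TdLN, 0.35 in PBMC and 0.01 in memory, and Ltb with Ly6e had 0.06, 0.30 and 0.04 in the same libraries.

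The rest of the family was close to silent in these cells. Of 34 further Ly6/uPAR genes listed, 32 were in the matrices, and none reached 20 CPM in any library. Ly6d, a gene of developing B cells, had 7.95 CPM in TdLN, 0.0204 CPM in PBMC and 0.399 CPM in memory, and TdLN also had the highest sum of B cell genes. Whether its UMIs came from B cells was not tested. Ly6k had 3.47, 2.53 and 5.18 CPM in TdLN, PBMC and memory, and Lypd6b 5.48, 2.0 and 3.08 CPM. In TdLN 21 genes, in PBMC 21 and in memory 23 had no UMI, which allows up to 0.0431, 0.0612 and 0.0428 CPM (3 counts).

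Genes that build the GPI anchor were measured for 26 of the list, and 7 or 8 of them had 20 CPM or more in each comparison. None was 2-fold apart in TdLN over memory or TdLN over PBMC, with medians of 0.24 and 0.29 (log2). In PBMC over memory 1 was 2-fold higher, Dpm1, which encodes the catalytic subunit of dolichol-phosphate mannose synthase. It had 72.3 CPM in PBMC and 35.7 CPM in memory, with 46.9 CPM in TdLN. Dpm3, which encodes a subunit that holds this enzyme in the membrane, had 134 CPM in TdLN, 181 CPM in PBMC and 201 CPM in memory. Of 12 naive and central memory-linked genes, 4 were 2-fold higher and 1 lower in TdLN over memory, and 3 higher and 1 lower in PBMC over memory. The lower one in both was Il7r, which encodes CD127, a marker of the memory sort, with 268 CPM in TdLN, 306 CPM in PBMC and 751 CPM in memory.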

How the data were processed

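The deposited matrices hold raw UMI counts, whole numbers for every gene in every called cell, which the authors produced using Cell Ranger 3.1.0 and mm10, per the submitters' processing notes. How reads matching several genes were treated is not given in the sources used here. The deposited barcodes numbered 7503 for TdLN, 6165 for PBMC and 8321 for memory.

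Cells showing 500 genes or more were kept where mitochondrial genes held no more than 10% of counts. Counts were summed over the cells of a library and divided by its total (CPM). Intervals (95%) are exact Poisson for levels, exact conditional binomial for ratios and Clopper-Pearson for shares (Python 3.11.15, scipy 1.17.1, numpy 2.4.6). UMIs of 1 library are not independent animals, so intervals and limits from 3 counts cover counting error only, and with 1 library per group no test between groups was run. Genes at 20 CPM or more in the higher library were compared, and ratios of 2-fold between libraries or 1.5-fold within one were counted. For splits by the interferon list, Ccr7 or Ly6c2 UMIs, for strata and for correlations each cell was thinned at random to 4200 UMIs. For these, 198 TdLN, 504 PBMC and 276 memory cells with fewer were left out. Levels by effector, precursor-type or cycling gate, receptor segment or non-T markers are sums over unthinned cells unless given at equal depth. In such sums, cells with more UMIs weigh more. Doublets were not called; an alternative leaves out the 5% of cells with the most UMIs. Cells with 5 or more UMIs over a B, myeloid or erythroid list and no T cell gene (102 TdLN, 3 PBMC and 2 memory cells) were kept and left out in another. Other alternatives used edgeR 4.0.16 and DESeq2 1.42.0 size factors, other totals, filters and depths. The ratio and thinning calculations were tested on simulated data.

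Named genes are the 4 members, the 5 genes of highest mean rho for each (Ly6c1 was too sparse), and up to 4 of each list by level; 2 genes this rule names are not reported here. Others are said to have been picked after their values were seen. The members and lists were chosen with earlier results of these data known. Coordinates are from GENCODE M21 and promoters from RefSeq, both on GRCm38, aligned with Biopython 1.88.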

Additional observations from a re-analysis of the deposited data

Results flagged for a closer look

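Ly6e went opposite ways with Ccr7 in the libraries. Its log2 ratio in Ccr7-positive over Ccr7-negative cells was -0.15 in TdLN, 0.58 in PBMC and -0.09 in memory, which is what flagged it, and the difference between libraries was not tested. Without effector gate cells the PBMC ratio was 0.954, on the same side as in TdLN and memory. Inside the gate, PBMC cells with at least 1 Ccr7 UMI had 433 CPM of Ly6e and those with none 249 CPM.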

How the results depend on the processing

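No paired analysis was possible because each group has 1 library, and for the same reason no replicate could be left out. Ly6a, Ly6c2 and Ly6e were not 2-fold apart between libraries in any setting; Ly6c1, below 20 CPM and not counted, had a TdLN over PBMC ratio of 0.417 under the stricter cell filter (1000 genes, 5% mitochondrial). The count of all genes at least 2-fold apart, the background, did move. With totals that omit ribosomal and mitochondrial genes, it was 310 higher and 149 lower in TdLN over memory, 76 lower in PBMC over memory and 248 higher in TdLN over PBMC, against 196, 88, 30 and 138. In TdLN over PBMC the 86 lower genes became 146 with equal weight per cell and 131 with thinned cells, and the 138 higher became 89 without the 5% of cells with the most UMIs. With no minimum level, higher and lower counts were 2663 and 1371 in TdLN over memory, 1630 and 1318 in PBMC over memory, and 2313 and 1312 in TdLN over PBMC. With a minimum of 100 CPM they were 43 and 27, 19 and 8, and 26 and 31, since fewer genes were compared.

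The count of pairs at least 1.5-fold higher in interferon-high cells ranged from 4 to 6. It was 4 under thinning to 2500 UMIs, where Ly6e in TdLN was at 1.43-fold, and 6 with no thinning, where Ly6a in memory was at 1.55-fold. It was 5 in the other settings, but Ly6a in memory took the place of Ly6e in TdLN under the inducible subset and without non-T marker cells. Settings that changed the cells or the depth drew the random thinning anew. Leaving out non-T marker cells removed none of the 5148 PBMC or 6727 memory cells that are thinned. Its changes in these 2 libraries, as for Ly6a in memory from 1.45 to 1.56, thus come from the new draw alone. The count higher in Ccr7-positive cells went from 0 to 1, Ly6e in PBMC, under thinning to 2500 UMIs, no thinning, the stricter cell filter, without non-T marker cells, without the 5% of cells with the most UMIs, with 1 or more against 0 Ccr7 UMIs, and within the lowest of 3 interferon classes. Its ratio of 1.49 lies at the 1.5-fold mark, and a new draw over the same PBMC cells (without non-T marker cells) gave 1.54. The count lower went from 1 to 0 without effector gate cells, where Ly6c2 in PBMC had a ratio of 0.797. Ly6c2 in PBMC over memory ranged from 0.953 to 1.11 and lay above 1 in 4 of 10 settings. Ly6a in TdLN over memory ranged from 0.781 to 0.887 and Ly6e from 0.843 to 0.962 over 9 settings, without change of direction. TMM totals shifted every log2 ratio by -0.15 in TdLN over memory and by -0.14 in TdLN over PBMC, and DESeq2 size factors by -0.13 and -0.14. Depth limits Ly6c1, with 63 to 80 UMIs per library.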

Other observations

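The few TdLN cells with markers of other cell types and no T cell gene had Ly6 levels of their own. The 38 cells with B cell genes had 672 CPM of Ly6a (95% interval 566 to 791) and 1325 CPM of Ly6e (1174 to 1489), against 28.2 CPM of Ly6c2 (10.3 to 61.3). The 70 cells with macrophage, monocyte, neutrophil or dendritic genes had 141 CPM of Ly6a (95.1 to 201), 1161 CPM of Ly6e (1020 to 1315) and 51.7 CPM of Ly6c2 (25.8 to 92.5). In the remaining 6163 TdLN cells the levels were 315 CPM of Ly6a, 637 CPM of Ly6e and 956 CPM of Ly6c2.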
